A study of Mus musculus with 6 samples.

Results

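The genes described here encode 8 members of 2 guidance systems, the ligands Slit2 and Slit3 with the receptors Robo1, Robo2 and Robo4, and the netrins Ntn1 and Ntn4 with the receptor Unc5b. They were chosen by symbol, and all 8 were found among the 24421 gene rows of the deposited table. RNA was sequenced in 6 libraries labelled as isolated retinal endothelial cells, from C57BL/6 pups at postnatal day 7. The 3 control libraries came from Anxa3 fl/fl pups and the 3 mutant libraries from Anxa3 fl/fl;Tie2-Cre pups, so all pups carried floxed Anxa3 alleles and only the mutants carried Cre. Tie2-Cre is active in endothelial cells and in blood-lineage cells, and an effect of Cre cannot be told apart from an effect of Anxa3 loss. The design looks for genes altered without annexin A3 that might be tied to crossings of arteries and veins.

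Slits are large secreted proteins that bind the immunoglobulin domains of Robo receptors and steer growing axons and migrating cells, most often by repulsion. Netrins are secreted relatives of laminin whose receptors include Dcc, neogenin and the Unc5 family, of which Unc5 receptors mediate repulsion. In the retina both systems act on neurons and on the growing vessel plexus, where Robo4 and Unc5b are best known from endothelial cells and can bind each other. FPKM, used throughout, scales fragments to library size and gene length, a unit per length in which levels of different genes can be set side by side. Values of a group are listed in the order of replicates 1 to 3.

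The start regions of Robo4 and Unc5b are shown because these receptors had the largest excess of control replicate 3 over the mean of control replicates 1 and 2 among genes with a window, 2.61 and 2.03 times. Robo1 was also highest in that library, at 1.25 times, and its window held no match. Each is a window of 300 bases around the start, from RefSeq on GRCm38.p6, and 7 of the 8 genes had such a window. Capitals mark matches on either strand. The motifs searched were the core AGGAAG and its variant with a first base changed, CGGAAG, both bound by ETS factors. The usual core of the box near many start sites, TATAAA, and the Sp1 type of box, GGGCGG, were searched as well, and no 2 of these matches overlap in the windows shown.
Robo4, chr9:37401722-37402021, plus strand: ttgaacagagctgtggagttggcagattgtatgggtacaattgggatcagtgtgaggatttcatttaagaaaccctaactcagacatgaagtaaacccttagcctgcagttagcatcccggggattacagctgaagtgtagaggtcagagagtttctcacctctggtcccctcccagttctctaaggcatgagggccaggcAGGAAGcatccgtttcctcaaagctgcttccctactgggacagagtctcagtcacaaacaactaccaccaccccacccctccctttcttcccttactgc
Unc5b, chr10:60831532-60831831, minus strand: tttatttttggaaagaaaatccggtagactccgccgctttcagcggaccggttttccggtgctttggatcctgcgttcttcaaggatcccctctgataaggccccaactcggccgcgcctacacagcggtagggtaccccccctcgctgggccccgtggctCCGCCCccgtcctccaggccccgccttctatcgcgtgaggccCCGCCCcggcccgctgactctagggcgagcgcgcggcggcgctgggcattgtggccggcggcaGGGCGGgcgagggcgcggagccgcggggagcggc
The Robo4 window held 2 CpG dinucleotides, fewer than most windows (median 7), and 1 match, to AGGAAG, which 35.4% of 32851 promoter windows contain. The Unc5b window held 36 CpG dinucleotides, more than 93.8% of windows, and 3 matches to GGGCGG, which 35.7% of windows contain. Neither window matched CGGAAG or TATAAA, present in 16.9% and 13.6% of windows. AGGAAG was also found in the Ntn4 window and in a Robo2 window, genes at 0.97 and 0.87 times in control replicate 3. GGGCGG was also found in the windows of Slit2, Ntn4 and Slit3, at 1.09, 0.97 and 1.25 times. No link between matches and levels was tested. A match is a string of letters and does not show that a factor binds there.

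Anxa3, the deleted gene, was at 18.7, 17.7, 43.4 FPKM among controls and at 9.78, 12.5, 15.1 FPKM among mutants. Every mutant library lay below every control library, and the two-sided exact permutation p was 0.1, the smallest that 3 against 3 libraries allow. The log2 difference was -0.93 (standard error 0.323), with an unadjusted p of 0.0204 and a limma adjusted p of 1, and it was -0.53 without control replicate 3. The labelled cell type was present but not alone. All 20 pan-endothelial markers were detected, with a mean level of 4.90 to 6.02 on the log2(FPKM + 1) scale, led by Cldn5 (mean 176 FPKM) and Egfl7 (129 FPKM). Photoreceptor markers stood higher, at 7.46 to 8.11, with Sag at a mean of 1038 FPKM. Control replicate 3 stood apart, with a pan-endothelial level 2.05 times that of control replicates 1 and 2, the lowest photoreceptor level, and the highest pericyte and smooth muscle level (3.67, against 2.93 to 3.26 in the other libraries). In such mixed samples, fewer cells of a type and less RNA per cell cannot be told apart. The labels do not say whether libraries came from separate pups, and p-values then reflect only how these libraries vary, which may be technical. Recovered reads ranged from 21381767 to 30897631 per library.

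None of the 8 genes differed between mutant and control groups beyond the spread between libraries. In each of them the values of both groups overlapped. Groups did not overlap for 4.35% of the 13619 genes tested, with mutants lower for 1.56% and higher for 2.79%. At so small a share, overlap in all 8 does not set them apart from other genes. Of the 8, 6 passed the filter of at least 1 FPKM in at least 3 libraries and were tested with limma, and Slit3 and Ntn1 did not reach it. Of the 6 tested, 0 passed at an adjusted p under 0.05, where 0% of all tested genes did, and 0 had an unadjusted p under 0.05, where 1.21% of all tested genes did. Their log2 differences ran from -0.14 to 0.09 with a median of -0.04, beside -0.01 for all tested genes, and the limma adjusted p was 1 for each. The median size of difference, regardless of sign, was 0.08 for the 6 and 0.07 for all tested genes.

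**Figure D1:**
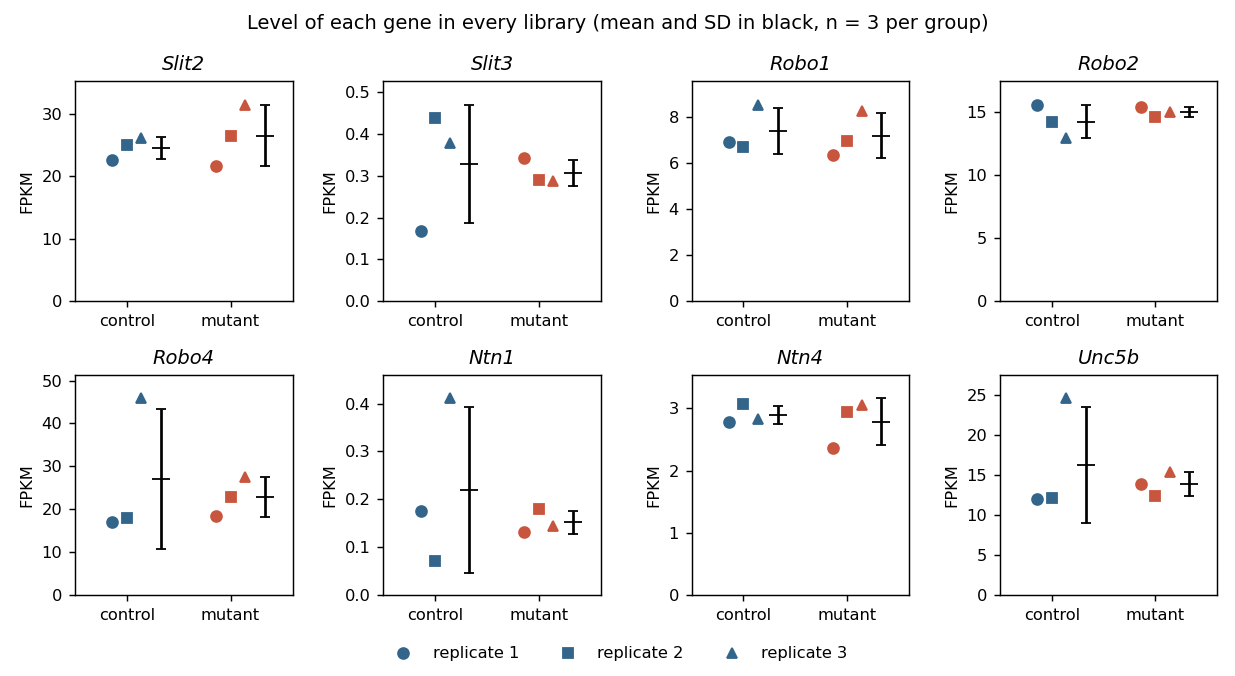
FPKM of each of the 8 genes in the 3 control (blue) and 3 mutant (red) libraries, with the group mean and SD in black and each axis starting at 0. Control and mutant values overlap in every panel, and control replicate 3 (blue triangle) lies highest for Robo4 (45.8 FPKM), Unc5b (24.5 FPKM), Robo1 (8.53 FPKM) and Ntn1 (0.411 FPKM).

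Slit2, the highest of the 4 ligands among the 8 genes, is a repellent secreted by retinal neurons among other cells. Controls held 22.6, 25.1, 26.1 FPKM and mutants 21.6, 26.5, 31.5 FPKM. The mutant libraries held both the lowest and the highest value, so the control range lay inside the mutant range. The control mean was 24.6 ± 1.79 FPKM, the mutant mean 26.6 ± 4.94 FPKM (SD, n = 3). The log2 difference was 0.09 (standard error 0.139), and the 95% interval ran from -0.23 to 0.41, a ratio of 0.853 to 1.33 on the FPKM + 1 scale. Without mutant replicate 3, the library with the highest value, the difference was -0.03. Between 3897 and 7500 reads lay behind each value. Slit2 made up 77.1% to 81.1% of the summed FPKM of Slit1, Slit2 and Slit3 in every library, Slit1 most of the rest.

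Slit3, a close relative of Slit2, was near the limit of detection. Controls held 0.169, 0.438, 0.379 FPKM and mutants 0.342, 0.289, 0.288 FPKM. All mutant values lay inside the control range, and 26 to 53 reads lay behind each. The exact 95% Poisson interval of control replicate 1 was 0.11 to 0.247 FPKM and that of control replicate 2 was 0.328 to 0.573 FPKM, so these 2 controls differed by more than counting error, which is all that such intervals cover.

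Robo2, a Slit receptor, varied least of the 6 tested genes on the log2(FPKM + 1) scale. Controls held 15.6, 14.3, 12.9 FPKM and mutants 15.4, 14.6, 15.0 FPKM. The lowest value belonged to control replicate 3, the library with the highest endothelial level. The control mean was 14.3 ± 1.34 FPKM, the mutant mean 15.0 ± 0.405 FPKM (SD, n = 3). The log2 difference was 0.07 (standard error 0.0986), with a 95% interval from -0.16 to 0.30, a ratio of 0.897 to 1.23, and without control replicate 3 it was 0.01. Of the tested genes, 15.8% varied less over the 6 libraries on the log2 scale.

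Robo1, a Slit receptor found in both neurons and endothelial cells, stood lower than Robo2 in 6 of 6 libraries. Controls held 6.92, 6.69, 8.53 FPKM and mutants 6.35, 6.95, 8.25 FPKM. The 2 highest values belonged to replicate 3 of each group. The control mean was 7.38 ± 1.0001 FPKM, the mutant mean 7.18 ± 0.973 FPKM (SD, n = 3). The log2 difference was -0.03 (standard error 0.137), with a 95% interval from -0.35 to 0.28, and without control replicate 3 it was 0.06.

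Robo4, the endothelial member of the Robo family, varied most among the 6 tested genes. Controls held 17.1, 18.0, 45.8 FPKM and mutants 18.4, 22.8, 27.5 FPKM. Control replicate 3 lay above every mutant library, and control replicates 1 and 2 lay below every mutant library. The control mean was 27.0 ± 16.3 FPKM, the mutant mean 22.9 ± 4.59 FPKM (SD, n = 3). The log2 difference was -0.10 (standard error 0.348), with a 95% interval from -0.90 to 0.71, a ratio of 0.535 to 1.63, so the libraries bound a change in Robo4 far less tightly than one in Robo2. Without control replicate 3 the difference was 0.35, with the sign turned. Of the tested genes, 97.1% varied less on the log2 scale.

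Unc5b, a repulsive netrin receptor of arterial and sprouting endothelium, had the same outlying library. Controls held 12.03, 12.12, 24.5 FPKM and mutants 13.9, 12.3, 15.4 FPKM. As for Robo4, control replicates 1 and 2 lay below all mutant libraries and control replicate 3 above them. The control mean was 16.2 ± 7.20 FPKM, the mutant mean 13.9 ± 1.53 FPKM (SD, n = 3). Its log2 difference was -0.14 (standard error 0.252), with a 95% interval from -0.73 to 0.44, a ratio of 0.605 to 1.36, and without control replicate 3 it was 0.18. Unc5b was the highest of the 4 Unc5 genes, with 35.2% to 52.8% of their summed FPKM.

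Ntn4, a netrin of basement membranes that binds laminin, was low but present in all libraries. Controls held 2.78, 3.07, 2.84 FPKM and mutants 2.36, 2.94, 3.06 FPKM. Mutant replicate 1 was the lowest library and the other 5 lay close together. On the log2 scale the groups differed by -0.04 (standard error 0.132), with a 95% interval from -0.35 to 0.26, and without mutant replicate 1 it was 0.04. Between 120 and 221 reads lay behind each value.

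Ntn1, the founding secreted netrin, had the lowest level of the 8. Controls held 0.175, 0.072, 0.411 FPKM and mutants 0.132, 0.179, 0.144 FPKM, from 10 to 61 reads. All mutant values lay inside the control range. The exact 95% Poisson interval of control replicate 3 began at 0.314 FPKM, above the upper bound of every other library, the highest of which was 0.253 FPKM.

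**Figure D2:**
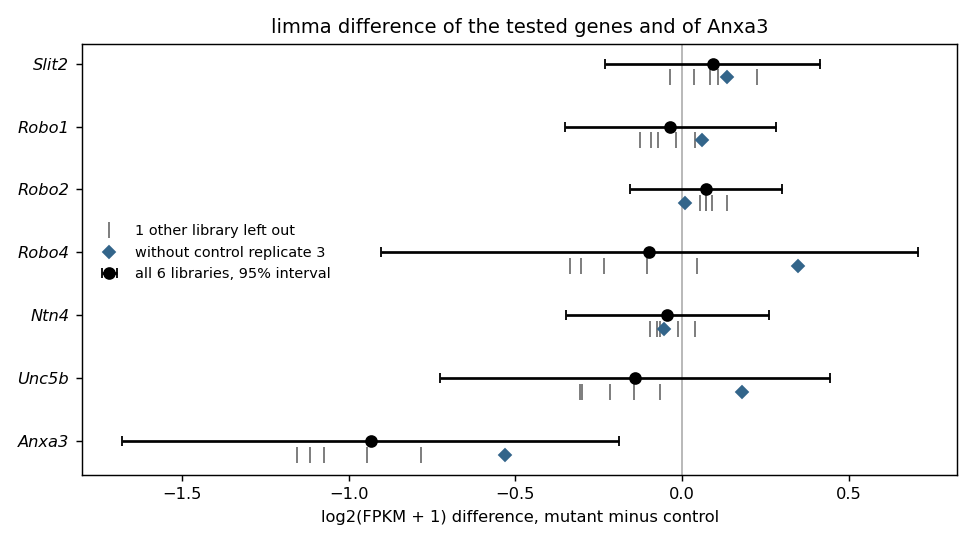
limma difference on the log2(FPKM + 1) scale, mutant minus control, for the 6 tested genes and Anxa3 with 95% intervals, and below each the value with 1 library left out. The intervals of the 6 genes all include 0, and the blue diamonds, without control replicate 3, lie at 0.35 for Robo4 and 0.18 for Unc5b.

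By mean over the 6 libraries the order was Slit2 (25.6 FPKM), Robo4 (24.9 FPKM), Unc5b (15.1 FPKM), Robo2 (14.6 FPKM), Robo1 (7.28 FPKM), Ntn4 (2.84 FPKM), Slit3 (0.317 FPKM) and Ntn1 (0.186 FPKM). Some neighbours in this order did not part. Slit2 exceeded Robo4 in 5 of 6 libraries and lay below it in control replicate 3, Unc5b exceeded Robo2 in 2 of 6, and Slit3 exceeded Ntn1 in 4 of 6. The steps from Robo4 to Unc5b, from Robo2 to Robo1, from Robo1 to Ntn4 and from Ntn4 to Slit3 held in 6 of 6 libraries. The 2 netrins thus stood below the netrin receptor Unc5b in every library, and Slit2 above both Robo1 and Robo2. Slit2, Robo4, Unc5b and Robo2 each had a higher mean than at least 76.5% of all rows.

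Over all 6 libraries, Robo4 and Unc5b varied less once set against the pan-endothelial level, and the other tested members varied more. On the log2(FPKM + 1) scale that level was 5.05, 4.90, 6.02 among controls and 5.01, 5.14, 5.37 among mutants. Measured relative to this level, in log2 units, Robo4 stood at -0.87, -0.66 and -0.47 in the controls and -0.73, -0.56 and -0.54 in the mutants. Its range over the 6 libraries narrowed from 1.37 to 0.40. Unc5b stood at -1.35, -1.19 and -1.34 in the controls and -1.11, -1.40 and -1.34 in the mutants, and its range narrowed from 0.97 to 0.29. A range narrowed in this way for 10.4% of the 13599 tested genes outside the marker list, and to no more than 0.5 of its own size for 3.58%. For Slit2 the range widened from 0.52 to 1.06, for Robo2 from 0.25 to 1.25, for Robo1 from 0.37 to 0.80 and for Ntn4 from 0.27 to 1.19, with control replicate 3 the lowest library in each. The endothelial level itself ranged over 1.11 log2 units, so the range of a gene that varied little, as these did, had to widen. Among tested genes outside the marker list the median range went from 0.41 to 1.19. The contrast of Robo4 and Unc5b with the other tested members turned on control replicate 3, whose omission was chosen after its values were seen. Without it the Robo4 range narrowed from 0.65 to 0.33 and that of Unc5b from 0.33 to 0.29, but those of Slit2, from 0.52 to 0.31, and Robo1, from 0.33 to 0.20, narrowed as well, as did 22% of the tested genes outside the marker list. The ranges of Robo2 (0.12 to 0.40) and Ntn4 (0.27 to 0.47) still widened.

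On this relative scale the mutant minus control difference was 0.05 for Robo4 and 0.01 for Unc5b, with two-sided exact permutation p of 0.7 and 0.8. It was 0.24 for Slit2, 0.22 for Robo2, 0.12 for Robo1 and 0.11 for Ntn4, with exact permutation p between 0.8 and 1, and the groups overlapped for each of the 8 genes, all tested this way. Without control replicate 3 these 4 were at -0.06, -0.19, -0.13 and -0.25, with the sign turned. The pan-endothelial level itself differed by -0.15 over all 6 libraries, so subtracting it raised the difference of every gene by the same amount. Without control replicate 3 the level was higher in mutants, so subtracting it lowered every difference alike. The sign shared by the 4 genes, and its turn, include this common shift. Relative to the same level Anxa3 differed by -0.78, with no overlap between groups and an exact p of 0.1.

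**Figure D3:**
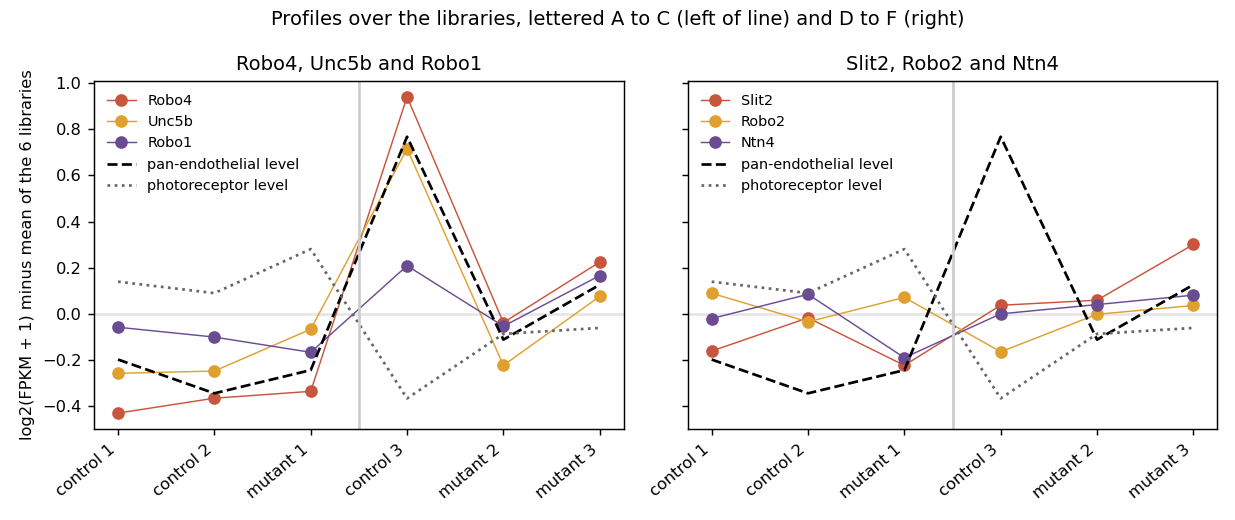
Each gene's log2(FPKM + 1) minus its mean over the 6 libraries, with the pan-endothelial level (dashed) and the photoreceptor level (dotted) drawn the same way; lines only join the points of a gene. Robo4 and Unc5b peak with the endothelial level in control replicate 3, where Robo2 has its lowest value.

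The labels letter the libraries, and control replicates 1 and 2 with mutant replicate 1 are A to C, the others D to F. Their meaning is not stated, and no test was made within a set, where one genotype has a single library. Libraries A to C had the lower pan-endothelial levels (at most 5.05) and the others the higher ones (at least 5.14), and the letters and that level cannot be told apart. Among A to C the mutant minus control log2 difference was 0.06 for Robo4 and 0.19 for Unc5b, and among D to F it was -0.85 and -0.79, where control replicate 3 is the lone control. With the letter set as a term in limma the difference was -0.39 for Robo4 and -0.30 for Unc5b. Slit2 differed by -0.13 among A to C and by 0.14 among D to F, and Ntn4 by -0.22 and 0.06. Robo2, at 0.04 and 0.18, and Robo1, at -0.09 and -0.15, kept their sign in both sets.

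The genes most like each member over the 6 libraries were taken by Pearson correlation on the log2(FPKM + 1) scale among tested genes with a mean of at least 5 FPKM. They are a description of 6 shared libraries, and the genes named for Robo4, Unc5b and Robo1 all had their highest level in control replicate 3, as those members did. The names are the top of longer lists. Genes at r of 0.95 or more numbered 351 for Robo4 (3.48% of candidates), 289 for Unc5b (2.86%) and 105 for Robo2 (1.04%). The count was 83 for Slit2 (0.822%), 45 for Robo1 (0.446%) and 18 for Ntn4 (0.178%). For Robo4 they were Fmnl3 (r = 0.999), a formin, Tm4sf1 (r = 0.999), a tetraspanin-like surface protein of endothelium, and Tns2 (r = 0.999), a focal adhesion protein. For Unc5b they were the adhesion protein vinculin, Vcl (r = 0.998), Tpcn1 (r = 0.997), an endolysosomal channel, and Fkbp9 (r = 0.997). Of the 20 pan-endothelial markers, 4 were among the 100 genes most like Robo4, 5 for Unc5b and 4 for Robo1. For Slit2, Robo2 and Ntn4 the count was 0. Each 100 came from 10097 candidates, or 10098 for Ntn4, so 0 of 20 is what most sets of 100 would hold. Slit2 was most like Ctnna2 (r = 0.995), a neuronal alpha-catenin, Atp2b2 (r = 0.994), a plasma membrane calcium pump, and Col23a1 (r = 0.992). Robo2 was most like Ahsa1 (r = 0.996), a cochaperone of Hsp90, Dixdc1 (r = 0.992) and Tomm7 (r = 0.991), of the mitochondrial import pore. Robo1 was most like Smyd2 (r = 0.995), Ap1s1 (r = 0.986) and Rilpl1 (r = 0.977), and Ntn4 most like Scamp2 (r = 0.989), Fbxw4 (r = 0.986) and Tvp23a (r = 0.980).

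Markers of other retinal cells gave the setting for the 8 genes. Retinal ganglion cell markers lay at 1.77 to 2.167 in controls and 1.85 to 2.44 in mutants on the log2(FPKM + 1) scale, with 7 of 8 higher in mutants and mutant replicate 3 the highest. Slit2 was also highest in that library, as were microglia markers. The lowest library differed, control replicate 1 for ganglion cell markers and mutant replicate 1 for Slit2. Amacrine and horizontal cell markers lay at 2.51 to 2.59 and 2.42 to 2.60, with 4 of 10 higher, bipolar cell markers at 5.06 to 5.54 and 5.40 to 5.44, with 5 of 7 higher, and photoreceptor markers at 7.46 to 7.97 and 7.74 to 8.11, with 8 of 10 higher. Astrocyte markers lay at 1.79 to 2.05 and 1.79 to 2.15, and Muller glia markers at 4.29 to 4.67 and 4.46 to 4.61. Microglia markers, of the blood lineage, lay at 2.38 to 2.81 and 1.85 to 2.94, with 7 of 8 lower and mutant replicate 1 the lowest library, as it was for Ntn4. That library was also the lowest for amacrine and horizontal cell markers and for tip cell markers. Venous markers lay at 3.90 to 4.67 and 3.88 to 4.26 and tip cell markers at 2.74 to 3.58 and 2.69 to 3.21, each highest in control replicate 3. In none of these lists was a marker at 0 in all libraries. All 20 pan-endothelial and all 7 arterial markers were lower in mutants by mean, and 0 of the markers passed the test. These directions came from control replicate 3, without which all 20 pan-endothelial and 5 of 7 arterial markers were higher in mutants. Without it, 8 of 10 photoreceptor, 5 of 7 bipolar cell and 7 of 7 Muller glia markers were lower in mutants. All 8 ganglion cell, 9 of 10 pericyte and smooth muscle, 6 of 7 tip cell and 4 of 5 venous markers were then higher. Microglia markers still had 7 of 8 lower, and the counts of astrocyte and of amacrine and horizontal cell markers did not change. With all 6 libraries, 4 of 7 Muller glia, 5 of 7 tip cell and 3 of 5 venous markers were lower. Of pericyte and smooth muscle markers, 7 of 10 were higher. The part of these marker lists in the values of the 8 genes was not tested.

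The rest of both pathways, 49 listed genes, gave no call either. Of 48 tested, 13 were higher and 35 lower in mutants, 0 passed at a limma adjusted p under 0.05, and 1 had an unadjusted p under 0.05, where 1.21% of all tested genes did. Without control replicate 3, 24 were higher and 24 lower. Among all tested genes 52.5% were lower.

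**Figure D4:**
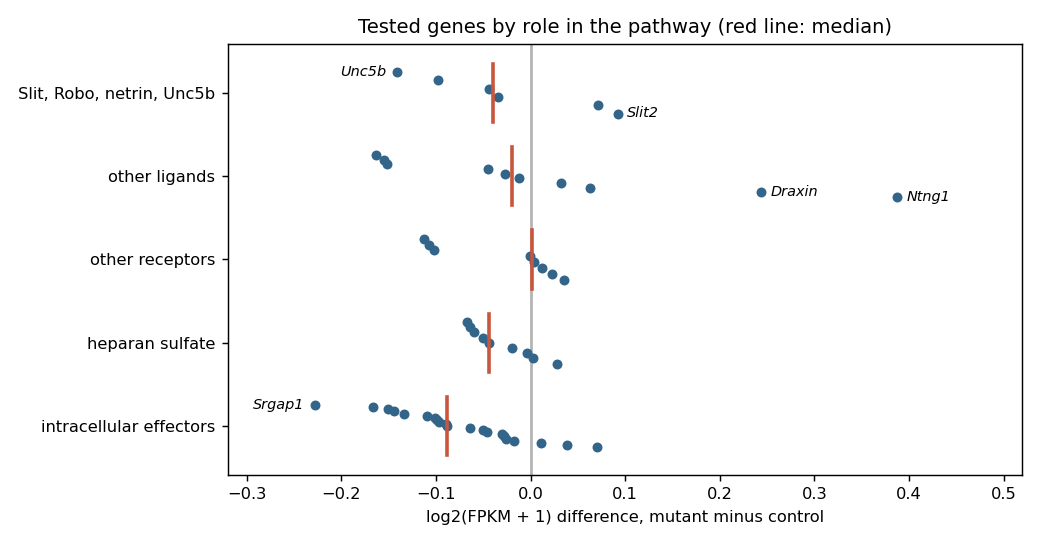
log2(FPKM + 1) difference, mutant minus control, of each tested gene by its role, with the median of each group as a red line. Medians lie between -0.09 for intracellular effectors and 0.00 for other receptors, and Ntng1 lies farthest out, at 0.39.

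Among other ligands, 4 of 10 tested were higher and 6 lower, with a median of -0.02. Without control replicate 2 or 3 the count was 6 higher and 4 lower. Ntng2, a membrane-anchored netrin-G of neurons, had the highest level, with control and mutant means of 56.4 ± 7.22 and 55.2 ± 5.85 FPKM (SD, n = 3 each). Rgmb, a neogenin ligand, measured 13.3 ± 1.11 and 11.9 ± 1.81 FPKM, and Flrt2, a ligand of Unc5 receptors, 6.85 ± 1.07 and 6.77 ± 0.871 FPKM. Ntng1, netrin-G1, was the single listed gene whose groups did not overlap, 1 of 48 or 2.08%, a share below the 4.35% of all tested genes, and it is named after its values were seen. Controls held 3.88, 4.35, 3.92 FPKM and mutants 5.32, 5.02, 6.56 FPKM. All mutant libraries lay above all control libraries, with a log2 difference of 0.39, a standard error of 0.13 and an unadjusted p of 0.018, but a limma adjusted p of 1. Over the alternative fits the difference ran from 0.23 to 0.49, at limma adjusted p from 0.123 to 1.

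Among other receptors, 4 of 8 were higher and 4 lower, with a median of 0.00. Mcam, an adhesion molecule of endothelium and pericytes also described as a netrin receptor, had means of 71.3 ± 33.2 and 62.01 ± 7.93 FPKM, with 109.6 FPKM in control replicate 3, and its log2 difference of -0.11 became 0.24 without that library. The netrin receptor Neo1 measured 27.8 ± 1.62 and 27.8 ± 2.35 FPKM, Dscam, a neuronal adhesion receptor, 20.02 ± 2.94 and 20.3 ± 2.73 FPKM, and the attractive netrin receptor Dcc 12.4 ± 0.825 and 11.5 ± 1.47 FPKM (SD, n = 3 each). Robo3, a divergent Robo of commissural neurons, completes the family and was added after its values were seen. It measured 19.3 ± 2.84 and 18.6 ± 6.77 FPKM, and its 11.4 FPKM in mutant replicate 1 was the lowest value. Of the summed FPKM of the 4 Robo genes, Robo4 held 27.6% to 53.3%, Robo3 21.7% to 36.0%, Robo2 15.1% to 29.9% and Robo1 9.92% to 12.3%. Robo4 held its largest share in control replicate 3, where Robo1, Robo2 and Robo3 held their smallest. A share falls when another gene of the sum rises. In FPKM, that library was the highest for Robo1 (8.53), the lowest for Robo2 (12.9) and neither for Robo3 (18.7).

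Heparan sulfate, which bridges Slit and Robo, is made and carried by 9 listed genes, of which 2 were higher and 7 lower, with a median of -0.04. Without control replicate 3 the count was 5 higher and 4 lower, and without mutant replicate 2 it was 6 higher and 3 lower. The chain-building enzymes Ext1 (37.3 ± 1.07 and 37.3 ± 1.05 FPKM) and Ext2 (29.8 ± 2.55 and 28.9 ± 1.72 FPKM) and the carrier protein Sdc3 (24.0 ± 4.11 and 22.8 ± 2.08 FPKM) had the highest levels. Of 21 intracellular effectors, 3 were higher and 18 lower, with a median of -0.09. Without control replicate 3 the count was 10 higher and 11 lower, and with library weights 11 higher and 10 lower. The GTPases Cdc42 (83.3 ± 4.98 and 77.9 ± 6.51 FPKM) and Rac1 (69.8 ± 7.54 and 62.8 ± 7.20 FPKM), which Robo signalling acts on, and Usp33, a Robo-binding deubiquitinase (55.3 ± 7.93 and 56.5 ± 3.18 FPKM), had the highest levels (SD, n = 3 each). Rac1 shares 51.4% of its annotated exon bases with Daglb on the opposite strand, so reads of these 2 genes may be mixed, whereas no exon base of the 8 guidance genes overlaps another gene.

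By GENCODE M21 on GRCm38, Slit2 spans 47983138 to 48307733 of chromosome 5 and Slit3 35121224 to 35708507 of chromosome 11, both on the plus strand. Robo1 is found on the plus strand of chromosome 16 from 72308306 to 73046095 and Robo2 on the same chromosome from 73891839 to 74411825 on the minus strand. Robo4 is found on the plus strand of chromosome 9 from 37401897 to 37415115, tail to tail with Robo3, which runs from 37415669 to 37433246 on the minus strand. Its neighbour did not peak with it: Robo3 was highest in mutant replicate 2. Ntn1 is found on the minus strand of chromosome 11 from 68209364 to 68400823, Ntn4 on the plus strand of chromosome 10 from 93640681 to 93747207, and Unc5b on its minus strand from 60762593 to 60831581.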

How the data were processed

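RNA was sequenced from 3 control and 3 mutant libraries made with the TruSeq v2 kit (per the labels). FPKM values by gene symbol were deposited by the authors. Cufflinks 2.2.1, STAR 2.5.0b, DESeq2 and bedtools 2.17.0, with mm10, stand in the submitters' processing notes without roles. The gene annotation, any filter and the use of strand: not given in the sources. Rows with a duplicated symbol (4) were left out. Reads per gene were recovered with depth taken from miRNA genes; each of the 16487 rows with no 0 came out whole, within 0.05 reads. Replicate libraries differed by more than sampling noise (chi-square per degree of freedom 15.4 to 74.8).

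log2(FPKM + 1) was tested by two-sided limma 3.58.1 (R 4.3.3, trended prior). Genes had to reach 1 FPKM in 3 or more libraries, and p-values were Benjamini-Hochberg adjusted over 13619 genes, with 0.05 as threshold. This scale understates changes of low genes. Levels relative to the mean of 20 pan-endothelial markers were compared with exact permutation tests. The fit was also run on simulated counts in which genes were drawn independently. These lack the shifts shared by many genes seen in control replicate 3, so that run does not measure its error on these data. The genes and lists were chosen with earlier results of these data known. Named genes were Anxa3, the 8 members, the 3 most abundant of each pathway list with Dcc and Neo1, and the 3 genes most like each member with a mean of at least 1 FPKM. Up to 2 of the most abundant genes of a marker list were named, and Robo3 and Ntng1 were added after their values were seen. Alternatives were another pseudocount (0.1), other filters, quantile normalization, a replicate block, a letter block, an endothelial covariate, library weights, a robust prior, limma voom on recovered reads and omission of each library; the endothelial reference was also taken as a median, and the ranges and marker directions without control replicate 3 were added after seeing the data. Python 3.11.15 with scipy 1.17.1 and matplotlib 3.10.9 was used for the rest.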

Additional observations from a re-analysis of the deposited data

How the results depend on the processing

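No member passed the limma threshold under any alternative. Counting each gene in each alternative separately there were 97 results, and the smallest limma adjusted p was 0.248, for Robo4 with library weights. Those weights, from 0.26 (control replicate 3) to 7.00 (mutant replicate 2), were the single alternative with calls among all genes, 145, and their estimation stopped short of its convergence tolerance. They turned the sign for Robo1 (0.037), Robo4 (0.27) and Unc5b (0.0023). The endothelial covariate turned it for Robo1 (0.016) and Robo4 (0.096), and a pseudocount of 0.1 for Ntn1 relative to the endothelial level (-0.049). The cause was not tested. With 1 library left out the log2 differences ran from -0.13 to 0.061 for Robo1, 0.0079 to 0.13 for Robo2, -0.34 to 0.35 for Robo4, -0.035 to 0.23 for Slit2, -0.11 to 0.041 for Slit3, -0.16 to 0.037 for Ntn1, -0.096 to 0.039 for Ntn4, -0.30 to 0.18 for Unc5b and -1.15 to -0.53 for Anxa3. Relative to the endothelial level they ran from -0.13 to 0.27 for Robo1, -0.19 to 0.43 for Robo2, -0.049 to 0.15 for Robo4, -0.060 to 0.47 for Slit2, -0.18 to 0.40 for Slit3, -0.16 to 0.20 for Ntn1, -0.25 to 0.35 for Ntn4 and -0.076 to 0.068 for Unc5b. Deviations of like-numbered libraries correlated at 0.249, -0.151 and 0.39, and those of unlike-numbered libraries at -0.352 to 0.231. The numbers were not taken as pairs, a question these few values cannot settle. With the replicate block 0 genes were called (296 at an unadjusted p under 0.05), and Robo4 differed by -0.10. By limma voom on recovered reads 0 were called (106 at an unadjusted p under 0.05). The 10 to 61 reads of Ntn1 and 26 to 53 of Slit3 limit what can be said of them.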
